A study of Mus musculus with 17 samples.

Results

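The replication-dependent histone genes are the multicopy genes that supply histones H1, H2A, H2B, H3 and H4 to newly made DNA. They were taken from 2 tables of islet RNA-seq counts as every gene whose symbol began with Hist1h, Hist2h, Hist3h or Hist4h, or carried the newer names H1f1 to H1f5, H2ac, H2bc, H3c or H4c with a number. The rule found 70 genes, which were the same in both tables, out of 78239 gene identifiers in one and 73212 in the other. They comprised 6 H1, 20 H2A, 19 H2B, 12 H3 and 13 H4 genes, of which 67 are annotated as protein coding and 3 as pseudogenes.

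The first table holds 12 islet libraries of male mice of C57BL6/N background, which were either wildtype (Pax4 WT) or homozygous for a knock-in of the *Pax4* R192H variant (Pax4 HH). At 12 weeks of age, 3 wildtype and 3 *Pax4* R192H mice had been fed standard chow (SCD), and 3 of each genotype were taken at 16 weeks of age after 4 weeks of a high-fat diet (HFD), so that diet and age cannot be told apart. The second table holds 2 control and 3 Pax4-BiKO libraries of male mice at 20 weeks of age after 8 weeks of HFD. Pax4-BiKO mice carry floxed *Pax4* alleles and the tamoxifen-inducible *Pdx1-CreERT2*, whose promoter is active in pancreatic β cells. Controls carry the floxed alleles without *Pdx1-CreERT2*, so that the presence of CreERT2 and the loss of *Pax4* cannot be told apart. Controls as well as Pax4-BiKO mice received tamoxifen at 7 to 9 weeks of age. Each library is labelled a biological replicate and is called a mouse below. Whether it holds the islets of 1 mouse or of several is not given in the sources used here, and the p-values measure the spread between these libraries.

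Cells make most of these mRNAs while DNA is copied, and the pool is degraded when DNA synthesis ends. Unlike nearly all other mRNAs, they normally carry no poly(A) tail and end just after a short stem-loop, which the stem-loop binding protein SLBP holds. Libraries selected by poly(A) therefore miss much of this pool, whereas the libraries here were made from total RNA. A few members, among them *Hist1h1c*, *Hist1h2bc* and *Hist2h2be*, are also known to yield polyadenylated transcripts in cells that do not divide.

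Most members carry Hist1 symbols and lie on chromosome 13 (56 genes). On GRCm38 (GENCODE M21), 24 of these lie between chr13:21715763-22043676 and 31 between chr13:23531050-23934851, while the processed pseudogene *Hist1h2al* lies apart from both at chr13:51202727-51203065. The Hist2 cluster holds 10 members at chr3:96219865-96270132, Hist3 holds 3 at chr11:58948920-58956830, and *Hist4h4* lies alone at chr6:136801553-136804415.

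Each mouse of the first table gave 24268157 to 42679645 counts, of which 16554 to 51448 fell on members. In the second table these were 28618835 to 31887537 and 30969 to 46498. A pair of identifiers held 36.2 to 53.3% of each library in the first table and 8.68 to 11.1% in the second. *Pax4* was at a count of 0 in all 17 mice, which allows up to 3 counts a library, so its level could not check the genotype labels. Islet endocrine markers were all detected in every group, and pancreatic acinar cell markers were high in some mice, as given below beside the results they touch.

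The 3′ end element that sets these genes apart was read from the annotated transcripts of GENCODE M21, and 46 of the 70 members held it. In 23 members the annotated transcript that ran farthest past the element ended within 100 bases of it, and in 23 it ran on for over 100 bases. The other 24 had no element in the annotation. Among these, the longest annotated transcript held 411 bases in *Hist1h3h* and 2620 in *Hist2h2be*. Whether such annotations stop short of an element that the mRNA carries was not tested. The element lay in the last 116 bases of a transcript in 32.9% of members (23 of 70) and in 0.0229% of other protein-coding genes (5 of 21834). The sequences below are those of members on which the results turn, with the 16 bases of the stem-loop in capitals and up to 5 transcript bases on each side, 5′ to 3′:
Hist1h2bm: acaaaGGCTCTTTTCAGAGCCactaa
Hist1h2ap: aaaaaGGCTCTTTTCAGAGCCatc
Hist1h1c: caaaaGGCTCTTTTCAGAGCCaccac
Hist1h3c: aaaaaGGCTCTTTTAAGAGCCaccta
Hist1h4a: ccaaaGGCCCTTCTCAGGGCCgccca
Hist1h4h: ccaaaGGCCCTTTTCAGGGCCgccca

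The stem-loop came in 8 forms. The form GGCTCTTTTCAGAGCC was the most frequent and was found in 26 members, namely 3 H1, 10 H2A, 8 H2B and 5 H3 genes. The H4 genes carried other forms, of which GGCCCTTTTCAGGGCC was found in 7 members, all of them H4. The form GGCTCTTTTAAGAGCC was found in 6 members, 3 of them H3. Thus *Hist1h2bm*, *Hist1h2ap* and *Hist1h1c*, which encode histones of 3 families, shared a stem-loop letter for letter.

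RefSeq promoter windows (GRCm38.p6, 250 bases before to 50 after the start) matched 56 of the 70 members, with 57 windows. They were searched on both strands for CCAAT, the letters bound by NF-Y, for the TATA box letters TATAAA, for the octamer ATTTGCAT bound by POU factors, and for AAACACA, known from H1 promoters. CCAAT was found in 86% of member windows against 37.4% of all 32851 promoter windows, TATAAA in 59.6% against 13.6%, ATTTGCAT in 22.8% against 1.74% and AAACACA in 14% against 7.18%. The octamer was found in 7 of 15 H2B windows (46.7%) and 6 of 16 H2A windows (37.5%), and in 0 of the H1, H3 and H4 windows. AAACACA was found in 4 of 5 H1 windows (80%), and CCAAT in 27.3% of H4 windows against 100% of H1, H2A, H2B and H3 windows. No motif holds the letters of another, and a match describes the letters and shows no binding.

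The upstream 150 bases of H2B promoters are shown for 3 of the 5 H2B genes called higher below. All 3 hold the octamer, which 1 called H2B gene lacked in its window. All 3 lie on the plus strand, with motif letters on either strand in capitals (ATTGG is CCAAT on the other strand), at chr13:21721894-21722043 for *Hist1h2bm*, chr13:22035671-22035820 for *Hist1h2bk* and chr13:23746584-23746733 for *Hist1h2bb*:
Hist1h2bm: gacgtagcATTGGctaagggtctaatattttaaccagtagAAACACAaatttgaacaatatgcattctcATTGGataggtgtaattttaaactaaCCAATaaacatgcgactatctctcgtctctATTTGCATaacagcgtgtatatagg
Hist1h2bk: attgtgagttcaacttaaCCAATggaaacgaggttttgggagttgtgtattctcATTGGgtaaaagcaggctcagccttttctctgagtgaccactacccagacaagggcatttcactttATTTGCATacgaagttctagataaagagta
Hist1h2bb: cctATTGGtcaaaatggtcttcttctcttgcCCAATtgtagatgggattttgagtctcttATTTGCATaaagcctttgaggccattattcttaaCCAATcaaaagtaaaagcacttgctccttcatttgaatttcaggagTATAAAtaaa

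The octamer began 25 bases before the start in *Hist1h2bm*, 30 in *Hist1h2bk* and 90 in *Hist1h2bb*, with 3, 2 and 3 CCAAT matches beside it.

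Within the islet RNA, levels of members spread widely. Of the 70 members, 62 passed the filter on low counts in each table and were tested. The 8 members left out of the first table had 0 to 66 counts summed over its mice, and 4 of these were at 0 in every mouse. Per kilobase of exon, mean levels of the tested members of the first table ran from 0.185 to 141.0 CPM per kb, CPM being counts per 1000000 counts of the scaled library, with a median of 10. The highest were *Hist1h4h* at 141.0 CPM per kb, *Hist2h2aa2* at 129.1, *Hist1h4n* at 118.1 and the linker histone gene *Hist1h1c* at 93.4.

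The H2B gene *Hist1h2bc* stood at 62.6 CPM per kb, the H3 gene *Hist1h3e* at 48.0 and the linker gene *Hist1h1e* at 37.1. In the second table, *Hist1h1c* led at 169.4 CPM per kb, followed by *Hist2h2aa2* at 161.6, *Hist1h4h* at 95.7, *Hist1h2bc* at 84.3 and *Hist1h3e* at 80.6. Hence the abundant members were for the most part the same in both tables, although the tables were not scaled against each other.

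The coding sequences are so alike that reads of 1 member can be assigned to another. The median member had 41.4% of its 25-base words to itself, and 43 of 70 members had under 50%. *Hist1h3h* kept 4.39%, *Hist1h3i* 5.17% and *Hist1h2ap* 6.55%, whereas *Hist1h2bm* kept 40%, *Hist1h3c* 42.4%, *Hist1h4a* 49.5%, *Hist1h1c* 86.7% and *Hist2h2be* 97.1%. *Hist2h2aa2* kept 0%, so its level cannot be told from that of its copies.

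The pair *Hist1h2bq* and *Hist1h2br* shows how such reads were split. In wildtype HFD mouse 3, *Hist1h2bq* had 0 counts and *Hist1h2br* 271, whereas in R192H HFD mouse 3 they had 315 and 22. Likewise *Hist1h4m* had 0 to 3 counts in the first table beside 858 to 2433 for *Hist1h4n*, but 466 to 796 beside 282 to 385 in the second. Single values of such copies are uncertain, and the sum over each family is therefore given first.

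Summed over all 70 members and scaled by TMM, a factor computed from the bulk of genes, the histone mRNA level was highest in the *Pax4* R192H mice on HFD. It was 1373.9, 1587.9 and 1586.0 CPM in their 3 mice and 960.1, 1073.0 and 1072.0 CPM in the wildtype HFD mice. On SCD it was 948.5, 744.1 and 748.4 CPM in wildtype and 727.3, 736.7 and 631.1 CPM in *Pax4* R192H mice. The HFD groups did not overlap and the geometric mean was 1.46-fold higher in *Pax4* R192H mice, while on SCD it was 0.862 of that in wildtype mice. The folds of sums below are ratios of geometric means too. In these bulk samples, a change in the number of cells of a type and a change in RNA per cell cannot be told apart.

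H3 showed the widest gap among the families, at 175.5, 195.2 and 210.9 CPM in *Pax4* R192H mice on HFD and 106.2, 111.5 and 90.8 CPM in wildtype mice on HFD (1.89-fold). H2A was 1.6-fold higher, H2B 1.57-fold, H1 1.35-fold and H4 1.29-fold, and with TMM none of these sums overlapped between the HFD genotypes. The sums are descriptions without a test. Their size and separation depended on the scaling: the log2 ratio over all members was 0.55 with TMM, 0.27 with the total count without the 2 most abundant identifiers, and 0.16 with the total count, under which the H4 sum was slightly lower (-0.016). The genotypes overlapped in H1 and H4 with the total without the 2 most abundant identifiers, and in H1, H2B, H4 and all members with the total count, while H2A and H3 stayed apart under both.

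**Figure D1:**
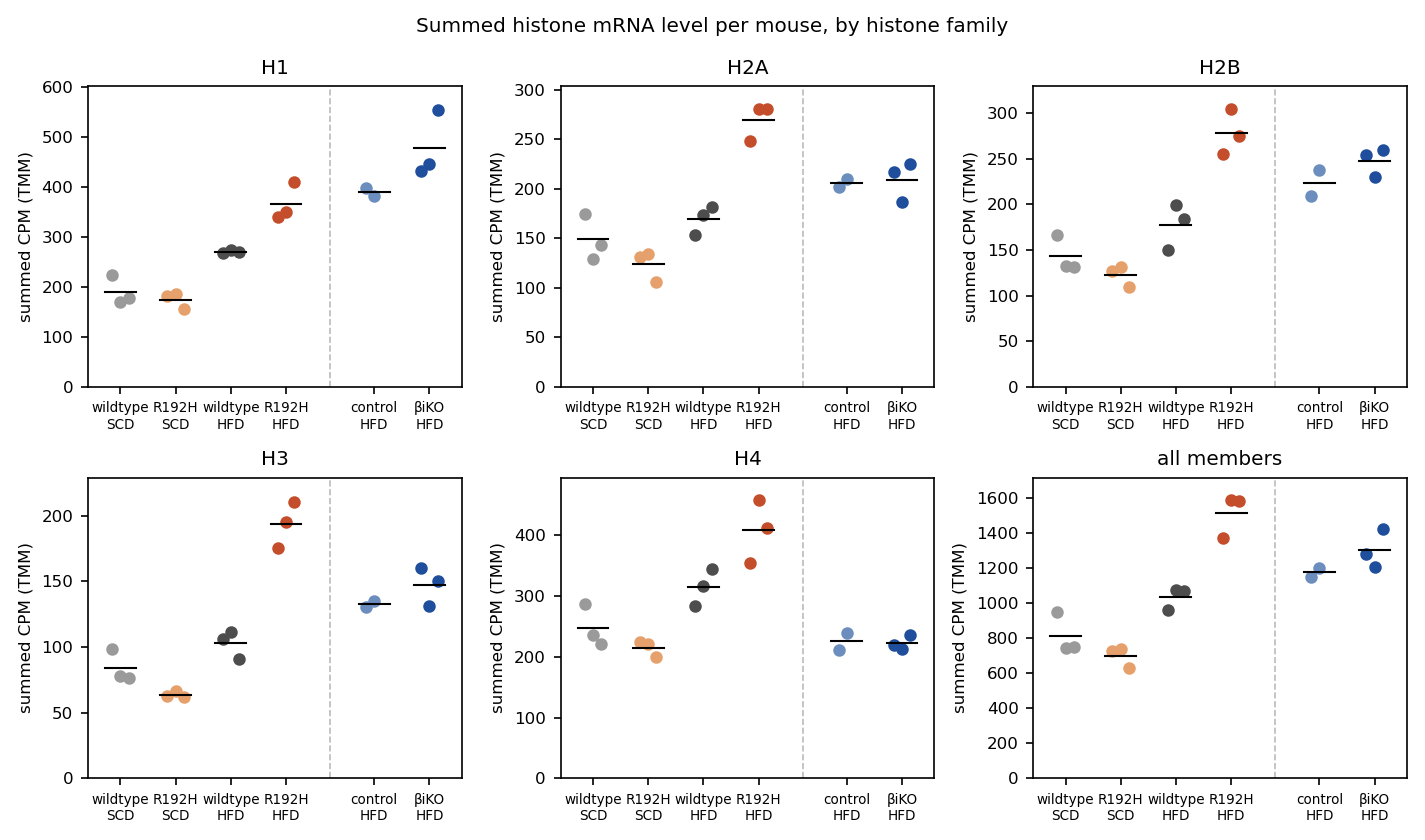
Summed CPM (TMM scaled, linear axis from 0) of all members of each histone family and of all 70 members, with each point 1 mouse and each bar the group mean; the dashed line parts the 2 tables, which were scaled separately. In every panel the 3 R192H HFD mice lie above the 3 wildtype HFD mice, with 1373.9 to 1587.9 against 960.1 to 1073.0 CPM over all members.

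The first comparison asked how the islet transcriptome of *Pax4* R192H mice differs from that of wildtype mice under HFD. Of the 62 members tested, 18 were called higher in *Pax4* R192H mice and 0 lower (adjusted p below 0.05 and an absolute log2 fold change over 0.5). Over all 19137 genes tested, 1.46% were called higher. The median log2 fold change of members was 0.85, against -0.014 over all genes, and 59 of 62 members were above 0. All 3 *Pax4* R192H mice lay above all 3 wildtype mice in 49 of 62 members, against 13% of all genes.

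By family, 5 of 16 H2A, 5 of 18 H2B, 6 of 11 H3, 2 of 12 H4 and 0 of 5 H1 members were called, and all 5 H1 members had an unadjusted p below 0.05, as did 15.9% of all genes. The family medians of the log2 fold change were 1.04 for H3, 0.99 for H2A, 0.76 for H2B, 0.49 for H1 and 0.44 for H4. The extremes were members at or near 0 in some mice, at 4.13 for *Hist1h2ah* (0 to 5 counts in wildtype and 12 to 36 in *Pax4* R192H mice) and -3.08 for *Hist1h2br*, and neither was called.

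Among the H2A genes, whose products pair with H2B in the nucleosome, *Hist1h2ap* (chr13:21833026-21833507) stood at 9.59, 11.9 and 11.6 CPM in wildtype and 22.1, 27.1 and 27.9 CPM in *Pax4* R192H mice on HFD. The groups lay apart, with a log2 fold change of 1.22 ± 0.17 (SE) and an adjusted p of 0.00429 by edgeR's quasi-likelihood test with Benjamini-Hochberg adjustment, which also gave the other adjusted p-values here. *Hist1h2ak* stood at 3.54, 3.07 and 3.46 CPM against 9.4, 8.3 and 11.3 CPM (1.53 ± 0.22, adjusted p 0.00466). *Hist1h2ab*, *Hist1h2ag* and *Hist2h2ac* were called as well, at 1.64, 2.06 and 0.69. *Hist2h2aa1* and *Hist2h2aa2*, the most abundant H2A members, were not called (0.59, adjusted p 0.337; 0.51, adjusted p 0.0835).

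Among the H2B genes, *Hist1h2bm* (chr13:21722044-21722567) had the lowest p of all members. It stood at 3.17, 3.34 and 2.26 CPM in wildtype and 10.8, 11.1 and 12.5 CPM in *Pax4* R192H mice on HFD, 3.92-fold higher (log2 1.97 ± 0.23, adjusted p 0.00195). Every R192H mouse lay at over 3 times the highest wildtype mouse. *Hist1h2bk* stood at 5.38, 6.27 and 5.44 against 11.4, 19.1 and 16.2 CPM (1.45 ± 0.24, adjusted p 0.00811), and *Hist1h2bb* at 10.2, 16.4 and 10 against 28.9, 30.1 and 25.1 CPM (1.202 ± 0.23, adjusted p 0.0187).

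*Hist1h2bg* (0.89) and *Hist1h2bj* (1.71) completed the H2B calls. *Hist1h2bc*, whose transcripts can be polyadenylated, overlapped between genotypes at 62.3, 87.7 and 84.8 against 82.2, 114.8 and 91.2 CPM and was not called (0.30 ± 0.18, adjusted p 0.471). *Hist2h2be*, of the same kind, stood at 7.19, 9.72 and 10.6 against 6.4, 7.8 and 6.6 CPM (-0.40 ± 0.18, adjusted p 0.279). Both lay below *Hist1h2bm* in log2 fold change, a difference between members that was not tested.

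H3, which with H4 forms the nucleosome core tetramer, had the largest share of called members. *Hist1h3c* (chr13:23744973-23745602) stood at 5.11, 7.16 and 2.99 CPM in wildtype and 18, 17.4 and 22.5 CPM in *Pax4* R192H mice on HFD (log2 1.93 ± 0.28, adjusted p 0.00514). *Hist1h3h* stood at 2.88, 4.13 and 3.88 against 9.98, 10.1 and 11.1 CPM (1.52 ± 0.26, adjusted p 0.0112), and *Hist2h3c2* of the Hist2 cluster at 3.09, 3.65 and 3.28 against 8.55, 11.7 and 10 CPM (1.60 ± 0.28, adjusted p 0.0114). *Hist1h3i* (1.04), *Hist1h3f* (0.60) and *Hist1h3g* (2.65, at 0.286 to 1.41 CPM in wildtype) were called too. The most abundant H3 member, *Hist1h3e*, was not called (0.47, adjusted p 0.139), nor was *Hist1h3a* (1.03, adjusted p 0.0622).

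The H4 calls were *Hist1h4f* and *Hist1h4a*. *Hist1h4f* stood at 10.2, 10.9 and 9.66 CPM in wildtype and 18.8, 21.4 and 26 CPM in *Pax4* R192H mice (log2 1.11 ± 0.17, adjusted p 0.00559), and *Hist1h4a* (chr13:23760692-23761230) at 7.24, 6.72 and 5.02 against 10.4, 14.1 and 17.8 CPM (1.16 ± 0.20, adjusted p 0.0119). The most abundant H4 member, *Hist1h4h*, overlapped between genotypes at 68.6, 68.5 and 81 against 66.4, 96.6 and 84.9 CPM (0.19 ± 0.18, adjusted p 0.67).

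The linker histone H1 seals the DNA at the nucleosome. *Hist1h1c* stood at 154.5, 155.8 and 157.6 CPM in wildtype and 194.9, 197.0 and 234.8 CPM in *Pax4* R192H mice on HFD, and *Hist1h1e* at 78.8, 84.5 and 83 against 98.2, 105.0 and 116.1 CPM. The genotypes lay apart in both, but neither passed the test (log2 0.42, adjusted p 0.119; 0.38, adjusted p 0.11).

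**Figure D2:**
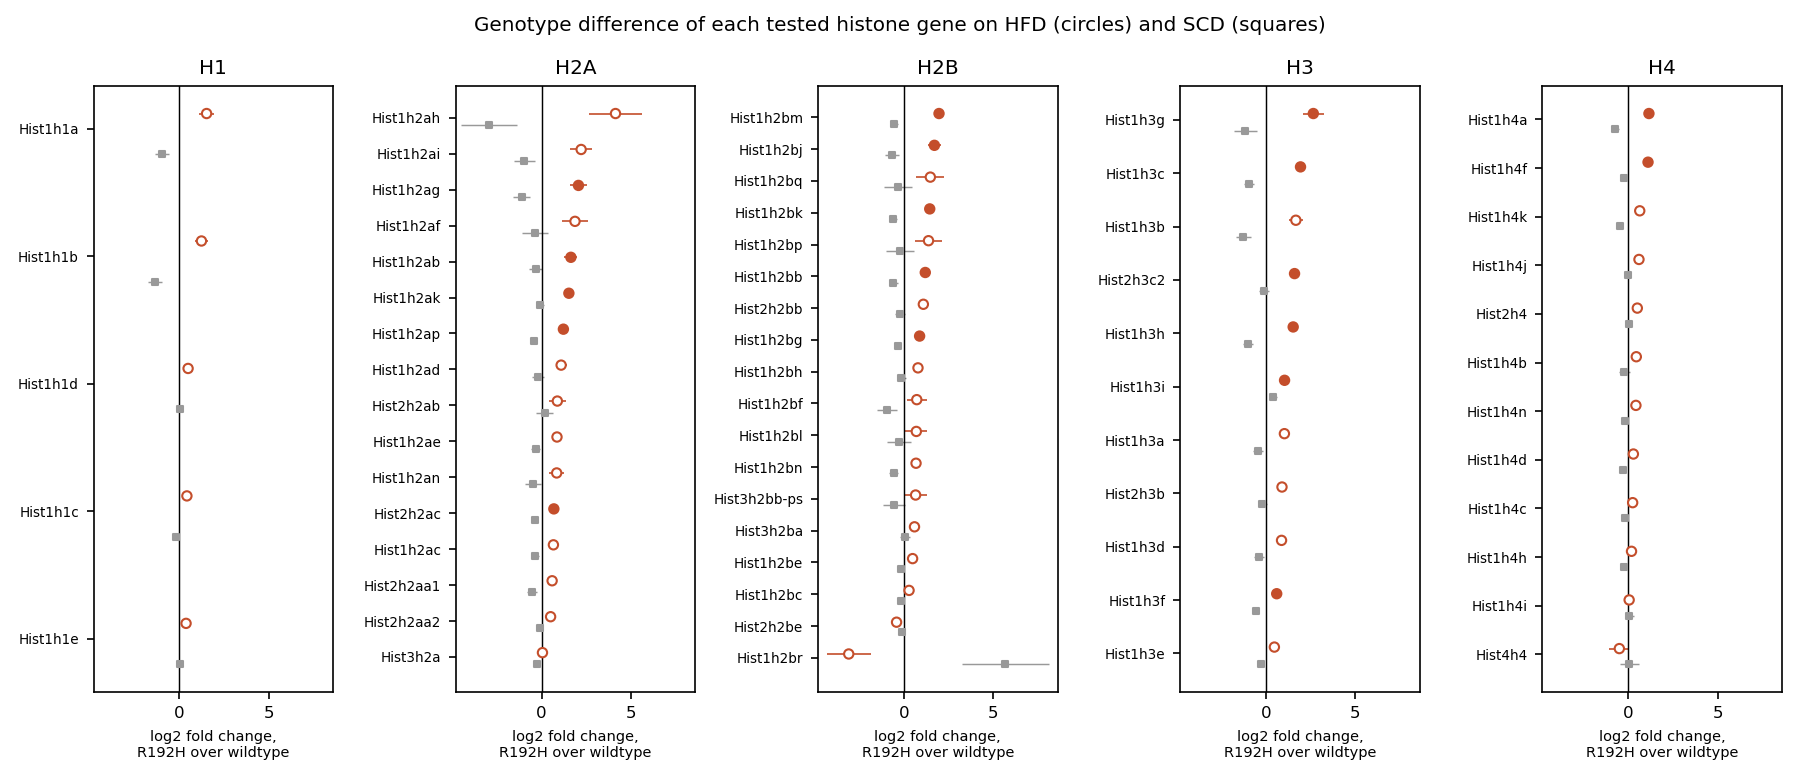
Log2 fold change of *Pax4* R192H over wildtype for each tested member by family, on HFD (circles, filled where called) and SCD (grey squares), with bars of ± 1 SE. On HFD 59 of 62 members lie right of 0 and 18 are called, and on SCD 53 of 62 lie left of 0 and none is called.

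DESeq2 called 29 of 66 members, all 29 higher. Without a filter on low counts edgeR called 32 of 66, of which 31 were higher. Fewer members were called when a mouse was left out: 10, 15 and 7 without wildtype HFD mouse 1, 2 and 3. Without *Pax4* R192H HFD mouse 1, 2 and 3 the count was 11, 7 and 11. With a mouse left out the median of members lay between 0.79 and 0.92. How many of all genes were called in these fits is not given here. The scaling shifted all genes: with the total count without the 2 most abundant identifiers, the median of all genes was -0.30 and that of members 0.56 (15 called higher and 1, *Hist2h2be*, lower, against 149 and 1065 of all 19137 genes). With the total count these were -0.40 and 0.45 (7 higher and *Hist2h2be* lower, against 66 and 835 of all genes). The distance between the medians was 0.87 with TMM, 0.86 and 0.85. Without scaling, members took 0.0951 to 0.13% of the counts in *Pax4* R192H mice and 0.0955 to 0.106% in wildtype mice on HFD, and these ranges overlapped.

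Markers of pancreatic acinar cells moved with the same contrast. Their summed level was 114329.1, 43480.9 and 44702.4 CPM in the *Pax4* R192H mice on HFD and 18821.6 to 29337.1 CPM in wildtype HFD mice, none of the 26 acinar markers was at 0, and 9 of 26 were called higher (median log2 fold change 1.51). With the acinar level of each mouse as a covariate, 0 of 62 members were called and 39 had an unadjusted p below 0.05. The median log2 fold change was 0.99 for members, against 0.009 over all genes. How many of all genes were called in this fit is not given here. On this covariate every *Pax4* R192H HFD mouse lay above every other mouse of the first table, so the fit cannot fully part it from genotype on HFD. The part of acinar cells in the histone values was not tested. Without *Pax4* R192H HFD mouse 1, which had the highest acinar level, 11 members were called and the median was 0.79.

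Next, the difference of the genotype effect between diets was tested as an interaction. Of 62 members, 8 were called, all with a higher genotype difference on HFD, against 0.0888% of all genes (17 of 19137). The median of this difference over members was 1.19 on the log2 scale, against -0.010 over all genes, and 58 of 62 members were above 0. These 8 members, *Hist1h2bm*, *Hist1h3c*, *Hist1h2ap*, *Hist1h3h*, *Hist1h4a*, *Hist1h2bk*, *Hist1h3f* and *Hist1h2bg*, were all among the 18 called between genotypes on HFD, a comparison that uses 6 of the same mice.

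On SCD, *Hist1h3c* stood at 3.91, 2.2 and 3.35 CPM in wildtype and 1.68, 1.39 and 1.83 CPM in *Pax4* R192H mice. The genotypes lay apart in the opposite order to that on HFD. The difference between the genotype effects was 2.88 ± 0.41 (SE, adjusted p 0.0264). In *Hist1h2bm* the SCD mice stood at 3.1, 2.04 and 2.27 against 1.65, 2.05 and 1.33 CPM, which overlapped, and the difference was 2.51 ± 0.33 (adjusted p 0.0264). *Hist1h4a* stood at 7.37, 7.15 and 6 against 4.29, 4.13 and 4.04 CPM on SCD, where the wildtype mice were all higher, and its difference was 1.88 ± 0.29 (adjusted p 0.0319).

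The abundant *Hist1h3f* stood at 21.8, 22.1 and 18.2 against 13.8, 12.6 and 15.8 CPM on SCD and 20.1, 25.7 and 21.6 against 31.9, 36.4 and 33.9 CPM on HFD, with no overlap on either diet and a difference of 1.16 ± 0.19 (adjusted p 0.0421). Across diets the wildtype levels of this gene overlapped while the *Pax4* R192H levels did not. In the other four called members the difference was 1.65 for *Hist1h2ap*, 2.53 for *Hist1h3h*, 2.05 for *Hist1h2bk* and 1.22 for *Hist1h2bg*.

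**Figure D3:**
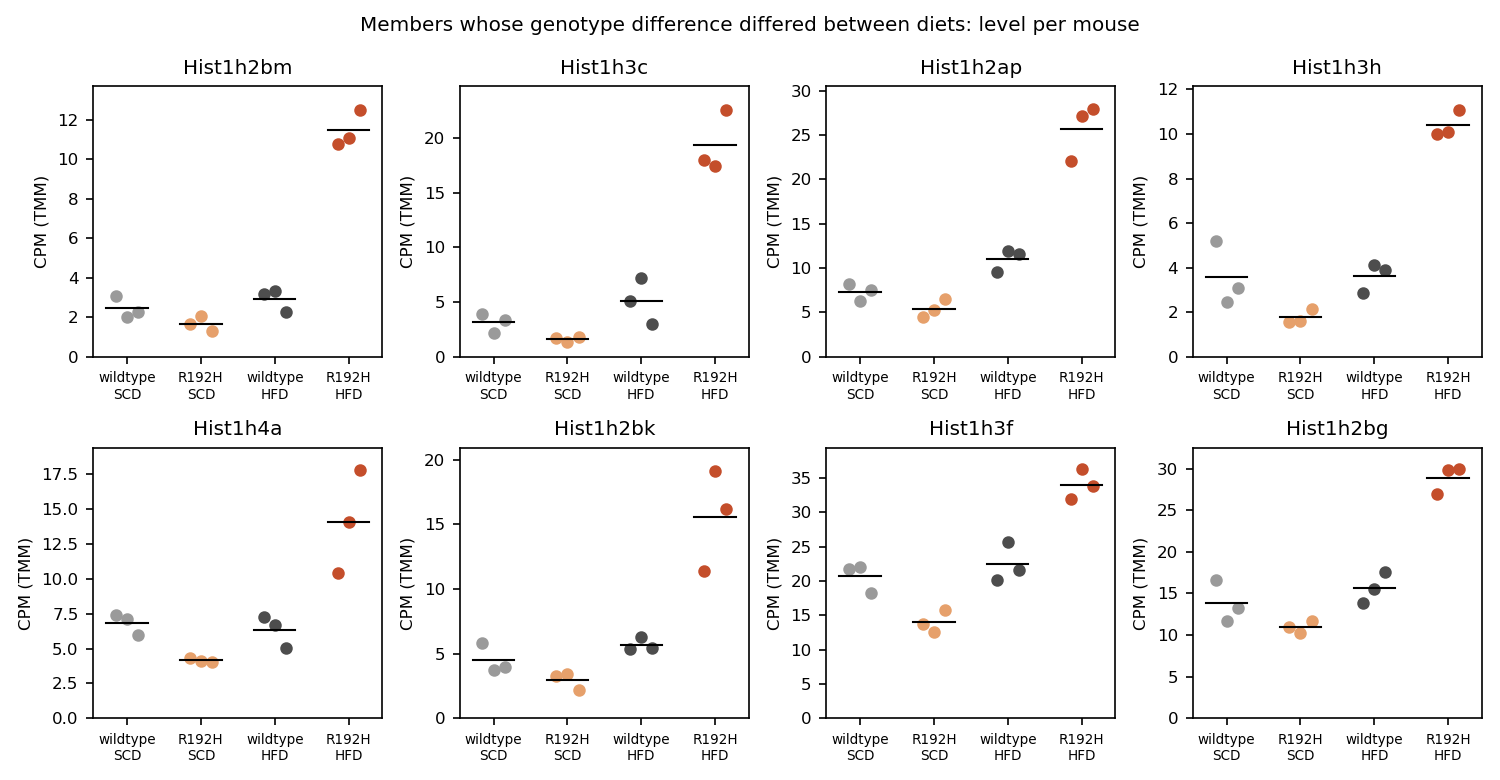
CPM (TMM scaled, linear axis from 0) of the 8 members called for the interaction, with each point 1 mouse and each bar the group mean. In each panel the 3 R192H HFD mice are the highest, as in *Hist1h2bm* at 10.8 to 12.5 CPM against 1.33 to 3.34 CPM in the other 9 mice.

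This count moved with single mice and with the method. Without wildtype SCD mouse 1, 2 and 3 it was 0, 13 and 0, without *Pax4* R192H SCD mouse 1, 2 and 3 it was 0, 1 and 4, without wildtype HFD mouse 1, 2 and 3 it was 0, 12 and 1, and without *Pax4* R192H HFD mouse 1, 2 and 3 it was 5, 0 and 0. It was 24 with DESeq2, 29 without a filter on low counts (28 of them higher) and 15 with at least 10 counts in every mouse. It was 0 with the total count as library size and 3 with the total without the 2 most abundant identifiers. With these 2 library sizes, 2 and 5 of all genes were called higher. How many of all genes were called in the other fits of this paragraph is not given here. The count of members was also 0 with the acinar covariate, where the median difference over members was 1.16. In the fits that left out a mouse this median lay between 1.09 and 1.29.

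Markers of other cell types were measured in this contrast. The median difference was 1.71 for the acinar list (26 of 26 above 0, 23 at an unadjusted p below 0.05), 0.96 for the leukocyte list (14 of 14 above 0, 7 at that level) and 1.03 for the stromal list (7 of 7 above 0, 0 at that level). For S-phase and mitosis genes it was 0.98 and 1.93, with 24 of 42 and 17 of 19 at that level. Of all genes tested, 11.2% were at that level. No gene of these 5 lists was called for the interaction by edgeR, and their part in the histone values was not tested.

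On SCD alone, 0 of 62 members were called between genotypes by edgeR (5 without a filter on low counts, with *Hist1h2br* higher and *Hist1h1b*, *Hist1h3b*, *Hist1h3c* and *Hist1h3h* lower), and DESeq2 called 0 as well, where 0% of all genes were called. The smallest adjusted p of a member was 0.791. Members lay below 0 in 53 of 62 cases with a median log2 fold change of -0.30, against -0.004 over all genes. An unadjusted p below 0.05 was found for 17 members (16 lower and 1 higher), which is 27.4% of members against 3.29% of all genes. That number was 5 without wildtype SCD mouse 1, whose summed histone level of 948.5 CPM was the highest of the SCD mice. The summed level of the leukocyte markers was 116.5 to 193.5 CPM in wildtype and 72.3 to 74.2 CPM in *Pax4* R192H mice on SCD. None of 14 tested was called by edgeR, and 10 had an unadjusted p below 0.05. Stromal and mitosis genes were mostly below 0 as well, with 0 of 7 and 2 of 19 above 0 and medians of -0.67 and -0.32. Their summed levels overlapped, at 61.3 to 132.8 CPM in *Pax4* R192H against 49.3 to 268.5 CPM in wildtype mice and at 29.4 to 54.2 against 37.7 to 65 CPM. No stromal or mitosis gene was called by edgeR, and 0 had an unadjusted p below 0.05. Of 42 S-phase genes, 20 lay above 0 with a median of -0.054, 0 were called by edgeR and 1 had an unadjusted p below 0.05. The part of these genes in the histone values was not tested.

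The effect of diet was then compared within each genotype. In wildtype mice, 1 of 62 members was called, against 0.204% of all genes called higher. It was *Hist1h1e* (chr13:23620629-23622558), at 54.9, 43.9 and 45.3 CPM on SCD and 78.8, 84.5 and 83 CPM on HFD, without overlap (log2 0.77 ± 0.12, adjusted p 0.0136). *Hist1h1c* stood at 135.9, 104.4 and 109.6 on SCD and 154.5, 155.8 and 157.6 CPM on HFD (0.42, adjusted p 0.165). The median of members was 0.29, against 0.011 over all genes, and it was 0.02 with the total count as library size, where the median of all genes was -0.26. With that library size *Hist1h1e* was no longer called, and the 1 member called was *Hist1h2br*, named after its value was seen, whose reads were split with *Hist1h2bq*. The count was 6 with DESeq2, 7 without a filter on low counts and 0 with only the 2 groups compared (*Hist1h1e* 0.77, adjusted p 0.128). Without wildtype HFD mouse 1, 2 and 3 the count was 3, 0 and 0, and without wildtype SCD mouse 1, 2 and 3 it was 1, 0 and 0. Leukocyte and stromal markers gave medians of -1.22 and -2.54 in these mice, with 2 of 14 and 0 of 7 called. Of these markers, 7 and 6 had an unadjusted p below 0.05, against 15.2% of all genes. Leukocyte sums lay apart, at 116.5 to 193.5 CPM on SCD and 76.3 to 86.9 CPM on HFD, as did stromal sums, at 49.3 to 268.5 and 30 to 44.5 CPM. Duct markers gave a median of -0.82, with 1 of 6 above 0, 0 called and 2 at that level. The part of these markers in the histone values was not tested.

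In *Pax4* R192H mice, 47 of 62 members were called higher on HFD than on SCD and 0 lower, against 9.75% of all genes called higher. The median log2 fold change was 1.54, against -0.058 over all genes. All HFD mice lay above all SCD mice in 55 of 62 members, against 21.3% of all genes. The calls took in 5 of 5 H1, 12 of 16 H2A, 11 of 18 H2B, 10 of 11 H3 and 9 of 12 H4 members, with family medians of 1.09, 1.78, 1.5, 2.28 and 0.98. The 18 members called between genotypes on HFD were all among these 47, and both comparisons rest on the same 3 *Pax4* R192H HFD mice.

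The lowest p was that of *Hist1h2ap*, at 4.49, 5.26 and 6.56 CPM on SCD and 22.1, 27.1 and 27.9 CPM on HFD (2.24 ± 0.18, adjusted p 3.76e-05). *Hist1h3c* was 11.9-fold higher on HFD (3.57 ± 0.31, adjusted p 6.98e-05), and *Hist1h2bm* was 6.77-fold higher (2.76 ± 0.24). *Hist1h2bn* and *Hist2h3b*, which were not called between genotypes, rose with diet to 7.04, 6 and 8.26 from 1.55, 1.31 and 1.56 CPM and to 10.5, 8.68 and 11.8 from 1.45, 2.1 and 2.9 CPM. All of these members lay apart between the diets in *Pax4* R192H mice.

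The abundant members also rose, with smaller log2 fold changes. *Hist1h1c* was at 107.0, 108.1 and 89.7 CPM on SCD and 194.9, 197.0 and 234.8 CPM on HFD (1.04 ± 0.13, adjusted p 0.000404), and *Hist1h1e* was 2.13-fold higher. *Hist1h4h* rose by 0.72 (adjusted p 0.0137), *Hist2h2aa2* by 0.63 and *Hist1h2bc* by 0.82. *Hist2h2be* was at 10.6, 10.2 and 8.81 CPM on SCD and 6.4, 7.8 and 6.6 CPM on HFD (-0.52 ± 0.18, adjusted p 0.0616), the lowest log2 fold change of the members.

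With the total count as library size, 29 members were called higher and 2 lower (*Hist2h2be* and *Hist3h2a*) in this diet comparison, where 340 of all 19137 genes were called higher and 8585 lower, with a median of 0.81 against -0.79 over all genes, and *Hist2h2aa2* (-0.11) and *Hist1h4h* (-0.019) changed sign. With the total without the 2 most abundant identifiers, 38 were higher and 1 lower, against 606 and 4986 of all genes, with a median of 1.10 against -0.51 over all genes. The acinar markers were at 15491.2 to 21988.5 CPM on SCD and 43480.9 to 114329.1 CPM on HFD in these mice, and 24 of 26 were called higher. With the acinar covariate, 15 members were called and the median log2 fold change of members was 1.51, against 1.54 without it. Of the other markers, 2 of 14 leukocyte, 1 of 8 endothelial (*Plvap*) and 1 of 6 duct markers (*Krt7*) were called higher, beside 9.75% of all genes, with list medians of 0.18, 0.08 and -0.25. Stromal markers gave a median of -1.62, with 0 of 7 above 0, 0 called by edgeR and 3 at an unadjusted p below 0.05, a level reached by 32.4% of all genes. Their part in the histone values was not tested.

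The last comparison asked what loss of *Pax4* in adult β cells does under HFD. In Pax4-BiKO mice, 0 of 62 members were called by edgeR against 0.0893% of all 20167 genes tested, and DESeq2 called 0. Without a filter on low counts edgeR called *Hist1h1b* and *Hist1h2bq* higher and *Hist1h2br* lower (3 members), and without Pax4-BiKO mouse 3 it called 1, *Hist1h2br*, lower. The median log2 fold change was 0.18, against 0.011 over all genes, with 46 of 62 members above 0. This median was 0.071 without Pax4-BiKO mouse 1, 0.090 without control mouse 1 and 0.323 without control mouse 2. There were 2 members with an unadjusted p below 0.05 (3.23%), against 12.8% of all genes. That number was 4, 9 and 6 without Pax4-BiKO mouse 1, 2 and 3, and 2 without either control. With all 5 mice they were the linker histone genes *Hist1h1b* (1.13, p 0.0146, adjusted p 0.29) and *Hist1h1e* (0.39, p 0.0379, adjusted p 0.361), of which *Hist1h1b* is named for this count after its value was seen.

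The summed histone level was 1149.7 and 1202.7 CPM in control and 1279.9, 1206.2 and 1423.6 CPM in Pax4-BiKO mice, a ratio of 1.11. H1 members gave 398.4 and 380.7 against 430.5, 446.2 and 552.8 CPM, the only family whose sums did not overlap with TMM. With the total without the 2 most abundant identifiers these sums overlapped, and with the total count they did not. Marker sums of 2 other cell types lay apart too, at 203.0 to 206.8 CPM in control and 255.0 to 316.7 CPM in Pax4-BiKO mice for duct cells and at 305.0 to 305.1 against 323.2 to 373.9 CPM for endothelial cells. Of these markers 2 of 6 and 8 of 8 had a log2 fold change above 0, edgeR called none, and 1 and 3 had an unadjusted p below 0.05. Islet endocrine sums lay apart as well, at 134465.8 to 149484.4 against 149651.4 to 157611.9 CPM. Of these genes 7 of 14 were above 0, 0 were called and 8 were at that level. Of the acinar markers 0 of 26 were above 0 (median -0.68), with 0 called and 0 at that level. The part of these cell types in the histone values was not tested. *Hist1h2bm* stood at 2.45 and 4.01 against 6.44, 1.93 and 3.98 CPM, and *Hist1h3c* at 1.93 and 3.77 against 6.93, 1.81 and 3.43 CPM. Both overlapped, with Pax4-BiKO mouse 1 above and mouse 2 below the controls (log2 0.34 ± 0.47 and 0.50 ± 0.54). Acinar markers were high in 1 mouse of each group here, at 122697.0 CPM in control mouse 1 and 97022.7 CPM in Pax4-BiKO mouse 1, and 19475.5 to 27898.2 CPM in the other three.

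Members were also set out by the 3′ end of their annotated transcripts. Between genotypes on HFD, 11 of 21 tested members whose transcripts end at the stem-loop were called higher, with a median log2 fold change of 1.202. Of those extended over 100 bases past it, 4 of 21 were called (median 0.51), and of those with no annotated stem-loop 3 of 20 (median 0.97). With diet in *Pax4* R192H mice the medians were 1.92, 1.00 and 1.75, with 18, 16 and 13 members called. In Pax4-BiKO against control mice they were 0.20, 0.13 and 0.30.

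These are descriptions: the classes were not tested against each other, share copies of the same sequences, and differ in level, at medians of 15.1, 8.55 and 3.77 CPM per kb. Each class held exceptions: *Hist1h4h*, whose transcript ends 46 bases past its stem-loop, was not called, whereas *Hist1h4a*, whose transcript runs on for 108 bases, was. By level alone, members above the median of 10 CPM per kb had 13 of 31 called on HFD with a median of 0.69, and those at or below it 5 of 31 with a median of 0.86.

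**Figure D4:**
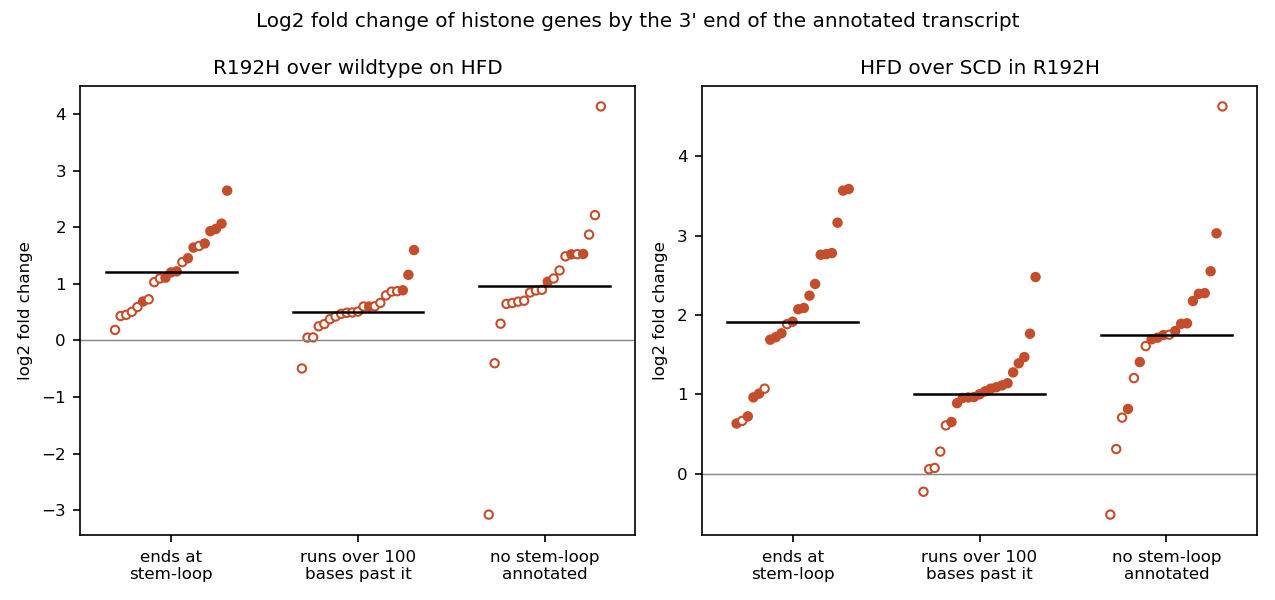
Log2 fold change of each tested member by the 3′ end of its annotated transcript, for genotype on HFD (left) and diet in *Pax4* R192H mice (right), with filled points called and bars at the class median. Members ending at the stem-loop have a median of 1.202 on the left, against 0.51 for those extended past it and 0.97 for those with none annotated.

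By position, 8 of 21 tested members in the block at chr13:21715763-22043676 were called between genotypes on HFD (median 1.24) and 8 of 28 in the block at chr13:23531050-23934851 (median 0.83). In the Hist2 cluster 2 of 9 were called (median 0.69), and none of the 3 Hist3 members. *Hist4h4* stood at -0.50. Among H2B members, 4 of 6 tested with the octamer in their promoter window were called (median 1.15) and 1 of 7 without it (median 0.79). With diet in *Pax4* R192H mice these medians were 1.88 and 1.89, and among H2A members with and without the octamer the HFD genotype medians were 0.86 and 1.09. Of the H2A members 2 of 5 with the octamer and 2 of 9 without it were called between genotypes on HFD. With diet 6 of 6 H2B members with it and 4 of 7 without it were called, and 4 of 5 and 7 of 9 H2A members. These differences were not tested.

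Other genes of histone supply were taken from lists. Of 16 tested genes for the transcription and 3′ processing of histone mRNA, 0 were called between genotypes on HFD by edgeR and 1 had an unadjusted p below 0.05, with a median of 0.09 against -0.014 over all genes. *Slbp*, which encodes the stem-loop binding protein, gave 0.20 (adjusted p 0.606). *Npat*, the coactivator of histone transcription, gave -0.24 (adjusted p 0.378), and the U7 snRNP subunit genes *Lsm10* and *Lsm11* gave -0.19 and -0.016.

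Of 18 histone chaperone and importer genes, 1 was called, *Asf1b* (1.59, adjusted p 0.0416), which hands H3 and H4 to chromatin assembly. Of 11 replacement histone genes, which are expressed outside S phase as well, *H2afx* was called (0.83, adjusted p 0.0316), and the list median was 0.10. With diet in *Pax4* R192H mice, *H2afx* (1.58), *Cenpa* (2.44), *H2afj* (0.94) and *H1f0* (0.58) were called, 4 of 11, with a median of 0.42. In the same comparison 1 of 16 genes of histone mRNA processing was called, *Casp8ap2* (-0.53, adjusted p 0.0246). Of the 18 chaperone and importer genes, 4 were called higher, against 9.75% of all genes, and 1 lower, with a list median of 0.018. Those called higher took in *Asf1b* (1.92), *Chaf1b* (1.68) and *Ipo4* (0.72), and the lower one was *Atrx* (-0.62).

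Genes of DNA replication and cell division were higher along with the members. On HFD, 11 of 42 S-phase genes were called higher in *Pax4* R192H mice (median 0.98) and 6 of 19 mitosis genes (median 1.64), all 42 and all 19 being above 0. *Mcm5* and *Mcm2*, parts of the replicative helicase, gave 1.67 (adjusted p 0.0109) and 0.98 (adjusted p 0.0126), *Cdc45* 1.62 (adjusted p 0.00509), and *Pcna*, the replication clamp, 0.77 (adjusted p 0.027). The division markers *Mki67* (1.79, adjusted p 0.0747) and *Top2a* (1.62, adjusted p 0.0766) did not pass, whereas the spindle kinase gene *Aurka* did (1.51, adjusted p 0.00639).

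The summed S-phase level was 342.8, 396.8 and 457.2 CPM in *Pax4* R192H mice and 217.0, 257.1 and 200.7 CPM in wildtype mice on HFD, and the mitosis level 237.7, 184.6 and 216.4 against 87.6, 88.6 and 24 CPM. The groups lay apart in both. With diet in *Pax4* R192H mice, 29 of 42 S-phase and 18 of 19 mitosis genes were called higher, and in wildtype mice 0 of each (4 and 1 at an unadjusted p below 0.05, against 15.2% of all genes), with medians of 0.23 and 0.39. In Pax4-BiKO mice edgeR called 0 of each, and 9 and 2 had an unadjusted p below 0.05, against 12.8% of all genes. The medians were 0.28 and 0.68, with 36 of 42 and 19 of 19 above 0. The S-phase sums lay apart, at 370.0 to 385.7 CPM in control and 389.3 to 509.8 CPM in Pax4-BiKO mice. The mitosis sums overlapped, at 73.9 to 98.8 against 73.1 to 186.4 CPM. In which cells the histone, S-phase and mitosis transcripts arose was not tested.

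**Figure D5:**
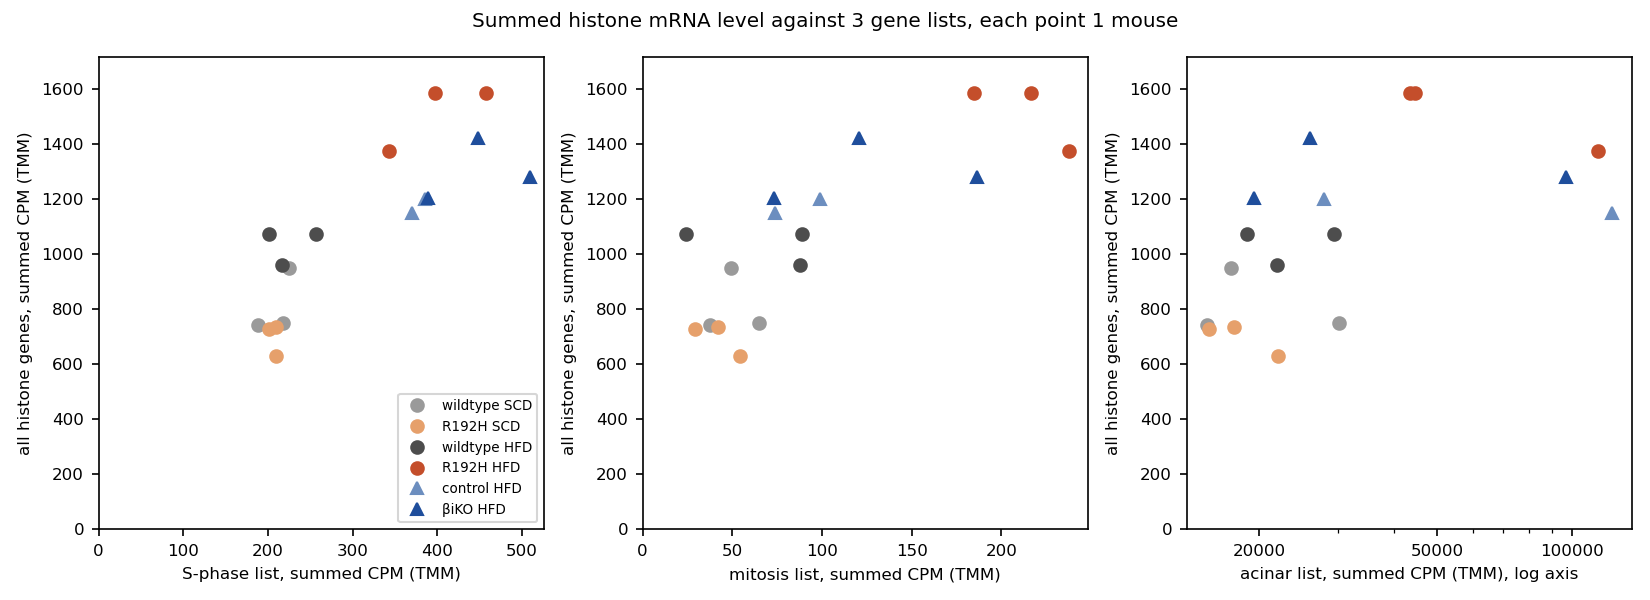
Summed CPM of all 70 histone genes in each mouse (linear axis from 0) against the summed CPM of the S-phase, mitosis and acinar lists (acinar on a log axis), with circles for the first table and triangles for the second, which was scaled separately. The 3 R192H HFD mice lie apart from the other mice of the first table on all 3 lists, and in the second table control mouse 1 and BiKO mouse 1 stand out on the acinar list at 122697.0 and 97022.7 CPM.

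Markers of 4 other cell types were measured beside these. Between genotypes on HFD, none of 14 tested leukocyte, 8 endothelial, 7 stromal or 6 duct markers was called by edgeR, with 2, 0, 0 and 3 at an unadjusted p below 0.05 and medians of 0.22, 0.12, 0.25 and 0.46. Their summed levels in *Pax4* R192H and wildtype mice were 67.2 to 108.3 against 76.3 to 86.9 CPM for leukocytes and 125.1 to 133.3 against 78.3 to 97.7 CPM for duct cells. The duct ranges lay apart. Of 14 islet endocrine genes, the glucose transporter gene *Slc2a2* was called lower (-1.28, adjusted p 0.00588), and the list median was -0.064. The sums of these 14 genes lay apart too, at 110186.6 to 123405.6 CPM in *Pax4* R192H and 76281.5 to 103986.3 CPM in wildtype mice. The part of any of these cell types in the histone values was not tested.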

How the data were processed

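Islet RNA was extracted with TRIzol, and libraries were made with a stranded total RNA kit and read as 100-base pairs. Per the labels and the study's methods, the authors used STAR v2.7.1 on mm10, then RSEM v1.3.3, and tximport for gene level totals. What they deposited are expected counts without scaling for depth, and these were rounded here to whole numbers. All per-sample columns could be assigned (0 left over), and groups came from the sample titles.

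Symbols, coordinates and transcripts were taken from GENCODE M21, which matched 65.8% and 66.7% of the identifiers of the tables and 51.5% and 93% of their counts. Unmatched identifiers were tested too. The 2 most abundant identifiers of the first table were not in that annotation and are not named here. Promoters were taken from RefSeq (GRCm38.p6).

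Tests used edgeR v4.0.16 in R v4.3.3: a quasi-likelihood F-test after TMM scaling and filterByExpr with a minimum count of 10, in 1 model with a coefficient per group for each table, with Benjamini-Hochberg adjustment over all genes. Genes were called at an adjusted p below 0.05 and an absolute log2 fold change over 0.5. SE was the log2 fold change divided by the square root of F. CPM values used TMM scaled library sizes, and each table was scaled alone.

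The members and lists were chosen with earlier results of these data known. Named were all members called (at most 15 by lowest p in a comparison), the 2 with the highest level per kb in each family and the 3 polyadenylated ones. Of the list genes called (at most 4 by lowest p in a list and comparison), only some were named. *Slbp*, *Npat*, *Lsm10*, *Lsm11*, *Mki67*, *Top2a* and *Pcna* were named whether called or not. *Hist1h1b*, *Hist1h2al*, *Hist1h3b*, *Hist1h3g*, *Hist1h2ag*, *Hist1h2ah*, *Hist1h2br*, *Hist1h2bq*, *Hist3h2a* and *Hist4h4* were added after their values were seen. Alternatives were DESeq2 v1.42.0, RLE size factors, a minimum of 10 counts in each mouse, no filter at all, a replicate block, only the 2 groups compared, an acinar covariate, each mouse left out, the total without the 2 most abundant identifiers as library size for the family sums, and, chosen after the data were seen, that size for the tests and the total count for both.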

Additional observations from a re-analysis of the deposited data

Results flagged for a closer look

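A genotype difference that differed between diets, by the interaction test of edgeR with Benjamini-Hochberg adjustment, was found for 8 members. The genotype effect on HFD minus that on SCD, on the log2 scale, was 2.51 for *Hist1h2bm*, 2.88 for *Hist1h3c*, 1.65 for *Hist1h2ap* and 2.53 for *Hist1h3h*, each with an adjusted p of 0.0264. It was 1.88 for *Hist1h4a* (adjusted p 0.0319), and 2.05 for *Hist1h2bk*, 1.16 for *Hist1h3f* and 1.22 for *Hist1h2bg* (adjusted p 0.0421 each). With each mouse left out in turn this number lay between 0 and 13, and it was 0 with the acinar covariate and with the total count as library size.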

How the results depend on the processing

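Counts of members called are given in the order genotype on HFD, interaction, diet in wildtype and diet in *Pax4* R192H mice, which were 18, 8, 1 and 47, and for genotype on SCD and Pax4-BiKO, which were 0. Without a filter they were 32, 29, 7 and 52, with 5 on SCD and 3 in Pax4-BiKO mice. With DESeq2 they were 29, 24, 6 and 51, and with at least 10 counts in every mouse 25, 15, 1 and 46. Fitting only the 2 groups compared gave 18 on HFD, of which 14 were called in both fits, 0 for diet in wildtype and 53 for diet in *Pax4* R192H mice. The acinar covariate gave 0, 0, 1 and 15. RLE size factors changed no count. For the alternative fits of this paragraph the share of all genes called is not given here, so these counts cannot be set against it.

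The library sizes without TMM were chosen after the data were seen, except the total without the 2 most abundant identifiers for the ratios of sums. With the total count the counts were 8, 0, 1 (*Hist1h2br*, while *Hist1h1e* lost its call) and 31, the medians 0.45, 0.73, 0.02 and 0.81, and the log2 ratios of the sum over all members 0.16 for genotype on HFD, 0.079 for diet in wildtype and 0.39 for diet in *Pax4* R192H mice. With the total without the 2 most abundant identifiers the counts were 16, 3, 1 and 39, the medians 0.56, 0.87, 0.16 and 1.10, and the ratios 0.27 for genotype on HFD and 0.67 for diet in *Pax4* R192H mice. Signs turned under the total count for *Hist1h1e* (-0.003), *Hist1h2bc* (-0.077) and *Hist1h4h* (-0.20) between genotypes on HFD, and for *Hist2h2aa2* (-0.11) and *Hist1h4h* (-0.019) with diet in *Pax4* R192H mice. *Hist1h4h* also turned between genotypes with the other total (-0.091). The cause was not tested.

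With each mouse left out in turn, calls lay between 7 and 15 for genotype on HFD, 0 and 13 for the interaction, 0 and 3 for diet in wildtype, 42 and 46 for diet in *Pax4* R192H, 0 and 0 on SCD, and 0 and 1 in Pax4-BiKO mice. Medians lay between 0.79 and 0.92, 1.09 and 1.29, 0.21 and 0.43, 1.41 and 1.62, -0.40 and -0.20, and 0.07 and 0.32 in the same order. Replicate numbers did not pair the mice, since same-numbered mice deviated together with correlations of -0.30 to 0.19 in the first table and 0.04 to 0.07 in the second. A replicate block gave 11, 0, 0 and 45 calls, 0 on SCD and 1 in Pax4-BiKO mice. Of the members named because they were called, 15 of 15 for genotype on HFD, 8 of 8 for the interaction, 1 of 1 for diet in wildtype and 15 of 15 for diet in *Pax4* R192H mice kept their direction under every alternative run, and 0, 0, 0 and 9 kept the call.

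Copies share reads, so that values of single members are less certain than those of families.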
